A study of Mus musculus with 24 samples.

Results

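Box C/D small nucleolar RNAs were followed on the surface of murine blood cells. The members described here are the genes annotated as snoRNA that carried a name starting with Snord and were listed in the tables of all 5 cell types. They had 104 symbols, 3 of which (Snord80, Snord3a and Snord3b-ps1) each name a pair of gene entries. They stood among 35062 genes listed in all 5 tables, of which 496 were annotated as snoRNA. Entries are counted as genes throughout, 78 of which could be tested below and 29 of which could not. A further 6 Snord genes were listed for monocytes alone, at 0 in each library, and are not included.

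Surface RNA was profiled with AMOUR, which holds fixed, intact cells on lectin-coated beads and amplifies in situ, through T7 transcription, the RNA that is exposed on the cell membrane. The spleen of C57BL/6 mice of genotype WT gave NK, B and T cells, and the bone marrow gave monocytes and hematopoietic stem and progenitor cells (HSPC), with 3 libraries per type and no treatment other than the amplification itself. HSPC were what lineage depletion left behind, T cells came from a CD8 T cell kit, and the ages of the mice are not given in the sources used here. Total RNA of peripheral blood mononuclear cells (PBMC) from blood of wild type mice was sequenced in 9 further libraries, 3 in each of 3 groups whose treatment is given as ct, WT or Y. Neither the labels nor the methods explain these letters, so that a difference between the groups has no known treatment behind it.

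Surface levels are TPM, the number of transcripts of a kind in 1000000, summed over the transcripts of a gene. As such shares carry no read counts, the depth behind the surface values is unknown. Of the markers of B cells, T cells and NK cells, each list summed highest in its own type, with 189 to 303 TPM for the B cell list in B cells, 38.8 to 117 for the T cell list in T cells and 210 to 528 for the NK cell list in NK cells. The monocyte list reached 2963 to 3630 TPM in monocytes, but the HSPC list was lower in HSPC, at 64.5 to 133 TPM, than in monocytes, at 273 to 414, although their ranges overlapped after the rescaling described next, at 717 to 1016 and 539 to 842. Neutrophil markers summed to 1594 to 1834 TPM in the monocyte libraries, with 6 of 6 above 1 TPM, and the part of such cells in the results on monocytes was not tested. Ribosomal RNA and the 3 same-valued genes Gm55936, Gm55094 and Gm55118 took between 49.4% and 91.0% of a library. All comparisons were therefore made both on the deposited values and after these genes were left out and each library was rescaled to the same total, called the rescaled values.

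Box C/D snoRNAs are short RNAs of the nucleolus that form a particle with fibrillarin, Nop56, Nop58 and Snu13. Their box C and box D motifs bind these proteins, and the sequence upstream of box D pairs with ribosomal or small nuclear RNA and directs the 2′-O-methylation of a nucleotide there. A few members, such as U3 (Snord3), U8 (Snord118), U13 (Snord13), U14 (Snord14) and U22 (Snord22), are needed for processing of the ribosomal RNA precursor, or pair with it, rather than mainly for methylation. In mice most are cut from introns of genes for ribosomal proteins, translation factors and non-coding host RNAs.

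The sequences of 7 members that the results turn on are shown here, taken from the GENCODE M21 transcripts of GRCm38 and printed 5′ to 3′ as DNA. Capitals mark the first TGATGA (box C) within the first 30 bases and the last CTGA (box D) within the last 15 bases. Snord37 (chr10:81178950-81179013, plus strand, intron of Eef2), Snord32a (chr7:45127382-45127464, minus strand, intron of Rpl13a) and Snord35a (chr7:45126346-45126435, minus strand, intron of Rpl13a) stood higher on T cells. Snord23 (chr7:15938762-15938870, minus strand, intron of Nop53) was high on T cells and low on monocytes, while Snord11 (chr1:59704790-59704873, plus strand, intron of Nop58) was high on both, as was Snord35a.
Snord37: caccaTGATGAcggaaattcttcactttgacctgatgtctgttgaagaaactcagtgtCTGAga
Snord32a: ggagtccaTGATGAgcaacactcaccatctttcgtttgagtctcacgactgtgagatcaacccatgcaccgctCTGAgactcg
Snord35a: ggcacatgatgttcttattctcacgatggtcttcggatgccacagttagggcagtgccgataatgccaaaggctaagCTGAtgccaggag
Snord23: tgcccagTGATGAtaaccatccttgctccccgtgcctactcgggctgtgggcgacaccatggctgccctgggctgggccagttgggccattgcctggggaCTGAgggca
Snord11: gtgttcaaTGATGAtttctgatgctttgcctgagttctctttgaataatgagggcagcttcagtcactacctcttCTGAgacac

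The other 2 stood higher on monocytes. Snord82 is at chr1:86356261-86356330 (minus strand, intron of Ncl) and Snord53 at chr17:71640879-71640956 (plus strand, intron of Wdr43).
Snord82: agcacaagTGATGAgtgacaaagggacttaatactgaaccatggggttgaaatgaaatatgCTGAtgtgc
Snord53: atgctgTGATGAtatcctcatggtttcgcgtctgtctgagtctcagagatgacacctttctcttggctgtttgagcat

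Snord35a held no TGATGA in this window and Snord53 no CTGA, which says only that these letters are not there. Of the members 95 had a sequence and 12 did not, the 95 being matched by transcript ID (74) or by symbol (21). TGATGA was found at the start of 69 (72.6%) and CTGA at the end of 89 (93.7%), searched on the transcript strand only, and both in 66 (69.5%). In 42 Snora transcripts, the other snoRNA class, the same search found 0 TGATGA and 3 CTGA (7.14%). The members were 64 to 238 bases long, with a median of 85. In this annotation 54 lay in an intron of every transcript of the host, 38 overlapped an exon of a host transcript, where reads can be shared with the host, and 3 (Snord118, Snord13 and Snord104) had no host on their strand.

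Summed over all members, box C/D snoRNA was most abundant on T cells and least abundant on HSPC. The sums in the 3 T cell libraries were 50029, 44385 and 34532 TPM. NK cells followed with 24934, 19805 and 17239 TPM. B cells (8621, 13238 and 14250 TPM) and monocytes (11223, 10919 and 13343 TPM) overlapped, and the 3 HSPC libraries were lowest with 2816, 4254 and 3690 TPM. The means were 42982 ± 7843 TPM on T cells, 20660 ± 3918 on NK cells, 12036 ± 3000 on B cells, 11828 ± 1321 on monocytes and 3587 ± 724 on HSPC (SD, n = 3 each). T cells, NK cells and HSPC did not overlap with any other type. On the rescaled values T cells were still highest, at 107578 ± 11867 TPM, and NK cells were at 61713 ± 10054. The lower end changed, with B cells at 46227 ± 11674, HSPC at 32513 ± 1247 and monocytes lowest at 23799 ± 2752 TPM (SD, n = 3 each). HSPC were thus lowest only before rescaling, and the 3 Gm genes alone held 74.3% to 83.3% of an HSPC library. Since these are shares of bulk samples, fewer cells with surface RNA and less RNA per cell cannot be told apart.

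**Figure D1:**
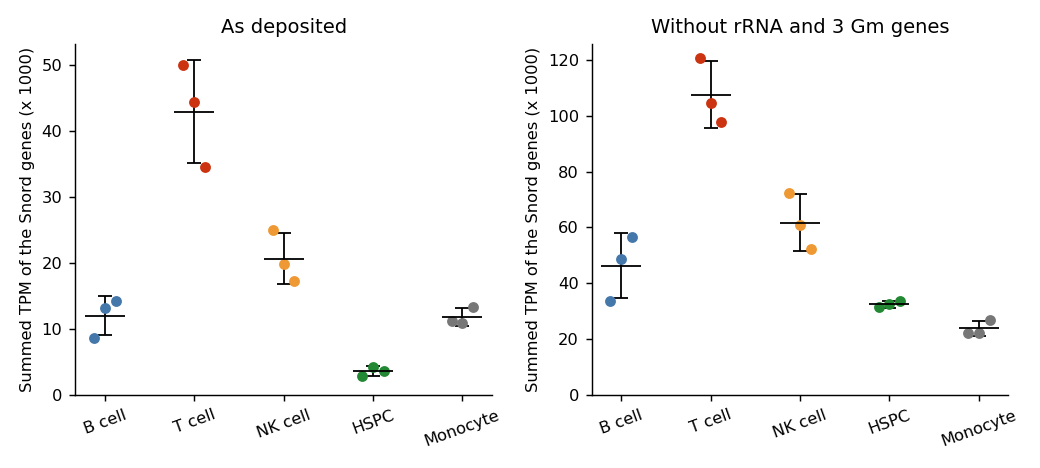
Summed TPM of the Snord genes, divided by 1000, per library for 5 cell types, as deposited (left) and after ribosomal RNA and the 3 Gm genes were left out (right). Points are libraries, and bars are the mean ± SD of 3 libraries. T cells lie at the top on both scales, whereas HSPC are lowest as deposited and monocytes after rescaling.

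Members with a mean above 50 TPM, the level at which the study counts a surface hit, numbered 60 on T cells (56.1% of the members), where 1.02% of all genes passed it. There were 42 on monocytes (3.07% of all genes), 38 on NK cells (1.07%), 23 on B cells (0.964%) and 12 on HSPC (0.667%). No member was at 0 in all 15 libraries, and 57 were above 0 in each library. At the other end, 17 members stayed below 0.1 TPM in every library, the highest value being 0.0197 TPM. These were the 17 listed copies of Snord116l, which lie in the imprinted Snrpn locus and are known from neurons. No member belonged to the Dlk1-Dio3 group.

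A few members carried most of the signal. The 12 highest by the mean of the 5 cell types were Snord118, Snord13, Snord37, Snord32a, Snord22, the 4 genes Snord3b1 to Snord3b4, 1 gene of Snord3a, Snord35a and Snord11. They held 83.9% to 85.9% of the sum in B cells, 77.9% to 79.1% in NK cells, 76.2% to 76.7% in HSPC, 66.3% to 68.8% in T cells and 54.6% to 57.5% in monocytes. Snord3b1 to Snord3b4 had the same value in each library, so that they stand for 1 measurement.

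Snord118 (U8), needed for maturation of the 5.8S and 28S ribosomal RNA, was the highest member on B cells and monocytes. It was at 2514, 3317 and 3441 TPM on B cells, 4845, 5552 and 4268 on T cells, and 4248, 3075 and 3163 on NK cells. On monocytes it was at 1941, 1751 and 2051 TPM, and on HSPC at 404, 582 and 478. The T cell libraries lay above the other 12, the lowest of them only just above NK cell library 1, and the HSPC libraries lay below the other 12. Both separations were lost after rescaling, where T cells, at 11688 to 13069 TPM, overlapped with B cells, at 9789 to 13663, and the monocyte libraries were the ones below the other 12. Snord13 (U13), the highest member on T cells, NK cells and HSPC by the mean, reached 7324, 6262 and 4715 TPM on T cells and 6328, 5638 and 4452 on NK cells, ranges that overlap. B cells had 972, 292 and 319 TPM, HSPC 497, 890 and 724, and monocytes 751, 646 and 913. All T and NK cell libraries of Snord13 thus lay above the other 9, and B cell library 1 lay well above the other two.

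Among guides of methylation, Snord37, hosted by the elongation factor gene Eef2, was at 4119, 2818 and 2408 TPM on T cells and at 1616, 1404 and 1325 on NK cells. It was at 151, 291 and 239 TPM on B cells, 132, 183 and 153 on HSPC, and 700, 507 and 722 on monocytes. All 3 T cell libraries were above the other 12, and NK cells held the next place. Snord32a, hosted by Rpl13a, ranged from 56.3, 100.1 and 72.2 TPM on HSPC and 115, 225 and 261 on B cells to 4755, 2834 and 2330 on T cells. On NK cells it was at 1496, 1042 and 523 TPM and on monocytes at 237, 266 and 445. Here the T cell libraries again stood alone at the top on both scales. The HSPC libraries stood alone at the bottom as deposited, but after rescaling, at 626 to 764 TPM, they overlapped with B cells, at 449 to 1037, and monocytes, at 468 to 899.

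**Figure D2:**
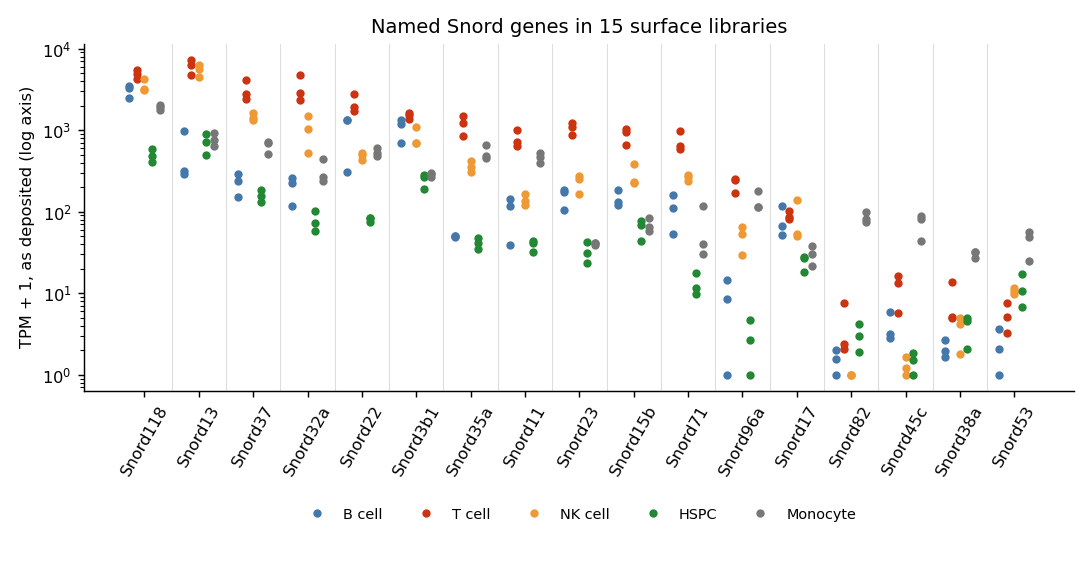
TPM + 1 on a log axis, as deposited, of 17 named Snord genes in the 15 surface libraries, each point 1 library and each colour 1 cell type. T cells (red) lie at the top for most genes, while the last 4 genes, Snord82, Snord45c, Snord38a and Snord53, are highest on monocytes (grey).

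To ask which members differ between cell types, every cell type was contrasted with the average over the remaining 4, using limma on log2(TPM + 1), in which 78 members passed the filter on the mean level, 5 TPM, and 83 did so on the rescaled values. The 29 members not tested on the deposited values reached at most 28.3 TPM in any library. Because a member can pass that filter through 1 cell type alone, the counts describe the tested members and not the whole list. The pseudocount of 1 TPM makes fold changes of scarce members smaller than they are in TPM. The study calls the surface libraries of a type biological replicates without saying whether they come from separate mice, and p-values measure the spread between these libraries.

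On T cells nearly all tested members were higher. Of 78, 72 were called higher on T cells (limma, adjusted p under 0.05), against 11% of all 3547 genes tested, and only Snord53 was called lower, against 77.8%. The median log2 fold change was 2.58 over the members and -1.32 over all genes. On the rescaled values 68 of 83 members were called higher (4.69% of 7830 genes) and 1 was called lower (86.8% of genes). The medians were then 2.07 and -1.85. There were 66 members called higher on both scales. In 43 of 78 members the 3 T cell libraries lay above the other 12 (3.13% of all genes), and in 41 of 83 on the rescaled values (1.47%). By the mean, T cells were the highest type for 63 of the 78, and monocytes for the other 15, while the share of all genes highest on each type is not given here. The NK cell list summed to 13.4 to 37.3 TPM in the T cell libraries, with 3 or 4 of its 7 markers above 1 TPM, beside 38.8 to 117 for the T cell list there and 0.563 to 1.13 for the NK cell list in B cells, and the part of NK cells in the results on T cells was not tested.

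The largest increases on T cells with separated libraries were those of Snord23, Snord32a, Snord58b and Snord99. Snord23, hosted by the ribosome biogenesis gene Nop53, was at 1211, 1096 and 870 TPM on T cells, against 163 to 271 on NK cells, 104 to 184 on B cells, 37.6 to 40.8 on monocytes and 22.4 to 41.8 on HSPC. Its log2 fold change was 3.70 (adjusted p 5.23e-09 in limma, SE 0.26). That of Snord32a was 3.64 (adjusted p 9.09e-08 in limma, SE 0.34). Snord99, hosted by the non-coding RNA Snhg12, was at 591, 432 and 333 TPM on T cells and at most 110 elsewhere, with a log2 fold change of 3.48 (adjusted p 5.15e-08 in limma, SE 0.31). Snord58b, from an intron of Rpl17, was at 196, 161 and 113.4 TPM on T cells and at 0.800 to 1.26 on B cells (log2 fold change 3.49, adjusted p 7.88e-04 in limma), although its monocyte libraries ran from 0 to 89.0. Called higher on both scales without full separation of the deposited values were also Snord96a (3.73), whose monocyte library at 181 TPM reached into the T cell range, and Snord52 (3.54), whose T cell libraries spread from 14.6 to 54.4 TPM.

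Within the ribosomal protein gene Rpl13a lie 4 members. Snord32a, Snord33, Snord34 and Snord35a have been studied for their part in the response to lipid and oxidative stress. All 4 were called higher on T cells on both scales (11% of all genes, 4.69% after rescaling). Their median log2 fold change was 3.04 as deposited. Snord35a was at 1510, 1232 and 856 TPM on T cells, and at 47.5 to 49.9 on B cells and 34.3 to 46.7 on HSPC. Monocytes were at 452 to 659 TPM and NK cells at 304 to 420.5. Below T cells this order depended on the scale, as after rescaling B cells, at 183 to 194 TPM, lay below HSPC, at 356 to 381, and monocytes, at 895 to 1333, overlapped with NK cells, at 919 to 1218. All 4 were called lower on B cells, as were 43.5% of all genes (31.5% after rescaling), and on HSPC, as were 79.5% (12.5% after rescaling), on both scales. On NK cells 3 of the 4 were called higher on each scale, where 7.89% of all genes were (5.35% after rescaling). On monocytes 3 were called higher on the deposited values, where 87.8% of all genes were, but 1 higher (Snord35a) and 1 lower (Snord32a) after rescaling.

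The 7 members of the pre-rRNA processing group (Snord118, Snord13, Snord22 and 4 genes of Snord14) were 7 of 7 called higher on T cells on both scales. Of all genes 11% were called higher there, and 4.69% after rescaling. The median of the 7 was 2.54 on the deposited values. Snord22, hosted by the non-coding RNA Snhg1, was at 1929, 2795 and 1716 TPM on T cells, 483 to 601 on monocytes, 435 to 524 on NK cells and 73.1 to 83.7 on HSPC. On B cells it was at 304, 1351 and 1338 TPM, so that B cell library 1 stood apart from the other two, and the call as higher on B cells (log2 fold change 0.84, SE 0.34, limma adjusted p 0.0483) stood close to the threshold. On HSPC 7 of 7 were lower as deposited, where 79.5% of all genes were, and 2 after rescaling, where 12.5% were. The group split on B cells, with 2 called higher and 4 lower (13.1% and 43.5% of all genes). After rescaling these counts were 2 and 3 (13% and 31.5%). For monocytes they were 1 higher and 3 lower (87.8% and 4.88%), and 0 and 5 after rescaling (86.3% and 6.69%). On NK cells 4 were called higher on each scale, where 7.89% of all genes were (5.35% after rescaling), among them Snord13 (log2 fold change 2.31, SE 0.30, limma adjusted p 1.88e-05).

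The U3 RNA binds the ribosomal RNA precursor at an early step of its processing. Of 9 Snord3 members 5 were tested, and Snord3b1 to Snord3b4 count here as 4 although they share 1 set of values. On both scales these 5 were called higher on T cells (11% of all genes, 4.69% after rescaling) and also on B cells (13.1% and 13%), and lower on monocytes (4.88% and 6.69%). Snord3b1 was at 703, 1185 and 1318 TPM on B cells, 1548, 1631 and 1378 on T cells, 1080, 701 and 695 on NK cells, 190, 278 and 263 on HSPC, and 296, 263 and 292 on monocytes. Its log2 fold change was 0.94 on B cells (adjusted p 0.00259 in limma, SE 0.23) and 1.63 on T cells (adjusted p 6.34e-06 in limma, SE 0.23). Rescaled and without the monocytes, a combination chosen after the data were seen, it was no longer called on B cells (0.54, limma adjusted p 0.062) or on T cells (0.47, limma adjusted p 0.058).

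On B cells most tested members were called lower as deposited, and 49.4% were after rescaling. Called higher were 7 of 78 (13.1% of all genes) and lower 48 (43.5%), with a median of -1.29 against -0.44 over all genes. On the rescaled values 10 of 83 were higher (13% of genes) and 41 lower (31.5%), and 41 were lower on both scales. Snord73b was at 8.51, 6.55 and 0 TPM on B cells and at no less than 11.7 elsewhere (log2 fold change -4.13, SE 0.50, limma adjusted p 3.01e-06). Its fold change ran from -4.72 to -3.10 with 1 library left out at a time. Snord80 of the older gene entry (ENSMUSG00000065735), hosted by Gas5, was at 11.7, 0 and 13.1 TPM on B cells, against 28.1 to 260 in the other libraries (log2 fold change -4.0, SE 0.59). With 1 library left out at a time, this fold change of Snord80 ran from -4.66 to -2.75. Snord73a (-3.36) and Snord47, also hosted by Gas5 (-3.32), had their 3 B cell libraries below the other 12 as well. Snord58b reached -4.32 without such separation. The other Snord80 entry (ENSMUSG00002075950) was tested as well but was not called on B cells on either scale, nor on T cells or monocytes. In all, 8 of 78 members had the 3 B cell libraries below the other 12, as did 2.14% of all genes tested.

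The shorter members were lower on B cells than the longer ones. This was noticed after the values were seen and is given as a description. Over the 70 tested members with a length, the log2 fold change on B cells and transcript length had a Spearman's rho of 0.59 on the deposited and 0.61 on the rescaled values. The points share their libraries, and some share a host. The median on B cells was -2.14 for the 32 members under 80 bases, -1.04 for the 28 of 80 to 99 bases, and -0.42 for the 10 of 100 bases or more. On T cells the same medians were 2.64, 2.68 and 2.52, with a rho of -0.09. On HSPC rho was -0.39. GC content also went with the value on B cells, with a rho of 0.45, and the parts of length, GC content and library preparation were not tested.

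**Figure D3:**
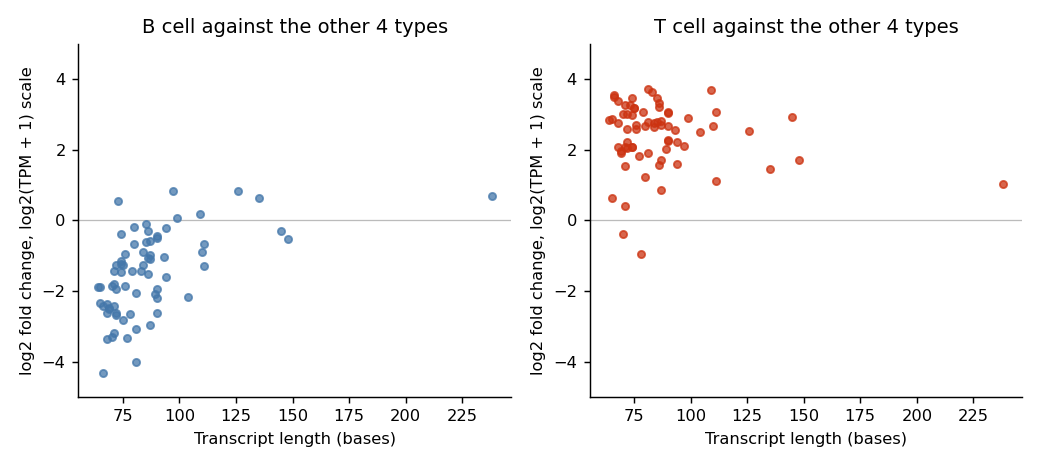
Log2 fold change on the log2(TPM + 1) scale against transcript length in bases, for 70 tested Snord genes, on B cells (left) and T cells (right), each against the other 4 types. On B cells short members lie lower than long ones, whereas on T cells members of all lengths lie mostly between 1 and 4.

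On NK cells 17 of 78 members were called higher (7.89% of all genes) and 2 lower (27%), with medians of 0.48 and -0.34. The higher members numbered 10 without NK cell library 1 and 26 without monocytes, or 7 when the latter values were also rescaled. On the rescaled values 15 of 83 were higher (5.35% of genes) and 4 lower (38.1%). Beside Snord13, the largest increases called on both scales were those of Snord14c (log2 fold change 1.82), Snord55 (1.67) and Snord71 (1.66), the last at 266, 281 and 234 TPM. The 2 lower members were Snord45c (-2.65) and Snord82 (-2.56), which is listed at 0 in all 3 NK cell libraries. Without monocytes 0 members were called lower on NK cells. For the fits without a library or without monocytes, the share of all genes called is not given here. Erythroid markers summed to 59.0 to 103 TPM in the NK cell libraries, 37.4 to 69.3 in the HSPC libraries and at most 46.0 elsewhere. After rescaling the order turned, with 416 to 602 TPM in HSPC and 181 to 306 in NK cells, and their part in the results on either type was not tested.

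On HSPC 64 of 78 members were called lower, a share of 82.1% that is near the 79.5% of all genes, and 0 higher (1.83%), with 0 also at an unadjusted p under 0.05 in limma. The medians were -1.95 and -1.07. After rescaling, 25 of 83 were called lower, or 30.1% against 12.5% of all genes, and 3 higher against 37.8%, with medians of -0.33 and 0.42. The 25 were called lower on both scales. Snord90, hosted by Rc3h2, was at 2.24, 3.11 and 2.46 TPM on HSPC and at 25.2 or more in the other 12 libraries (log2 fold change -4.35, SE 0.23, limma adjusted p 1.25e-09). After rescaling it was still lower, by -3.01 (adjusted p 1.21e-07 in limma, SE 0.21). Snord71 (-3.79), Snord16a (-3.64) and Snord35b (-3.50) also had all HSPC libraries below the other 12, Snord71 only as deposited, and Snord96a reached -4.47 with values between 0 and 3.64 TPM. For 48 of the 78 tested members HSPC had the lowest mean, and for 26 B cells. After rescaling, HSPC were lowest for 17 of 83, B cells for 38 and monocytes for 24. The share of all genes lowest on each type is not given here, so that these counts do not set the members apart. Neutrophil markers summed to 39.7 to 122 TPM in the HSPC libraries, a range that overlaps that of the HSPC list there, and erythroid markers to 37.4 to 69.3 TPM (416 to 602 after rescaling). The part of such cells was not tested.

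On monocytes the members stood back behind the other genes. Of 78, 32 (41.0%) were called higher where 87.8% of all genes were, and 16 (20.5%) lower where 4.88% of all genes were. The median was 0.48 over the members and 3.02 over all genes. After rescaling 19 of 83 were higher (86.3% of genes) and 31 lower (6.69% of genes), with medians of -0.57 and 2.19. Protein-coding genes took 16.9% to 18.1% of a monocyte library and 0.645% to 2.96% of the other 12, and the part of this difference in these counts and in the host values was not tested. The monocyte libraries were sequenced on a DNB instrument with shorter reads, per the methods, and the other 12 on an Illumina instrument, and the monocyte table listed 149488 transcripts where each of the other tables listed 102168. Cell type, platform and annotation can therefore not be told apart for monocytes, although only genes listed in all 5 tables were compared.

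Among members whose 3 monocyte libraries lay above the other 12, the largest log2 fold changes were those of Snord82, Snord45c, Snord38a and Snord53. Snord96a, at 2.85, overlapped with T cells. Snord82, from an intron of the nucleolin gene Ncl, was at 97.7, 81.1 and 74.9 TPM on monocytes, at 1.08 to 6.65 on T cells, 0.920 to 3.17 on HSPC, 0 to 1.03 on B cells and 0 on NK cells. Its log2 fold change of 5.45 (adjusted p 3.69e-11 in limma, SE 0.32) was the largest of any member. Snord45c, from Rabggtb, was at 42.8, 87.7 and 80.8 TPM against at most 15.4 elsewhere (4.55, SE 0.32). Snord38a was at 31.2, 30.6 and 26 TPM against at most 12.6 (3.05, SE 0.35). Snord53, from Wdr43, was at 24.1, 48.0 and 55.4 TPM against at most 16.4 (2.82, SE 0.36), but after rescaling its monocyte libraries, at 47.6 to 112 TPM, overlapped with HSPC, at 65.1 to 125. Of these, Snord45c was also called higher on T cells (1.22, limma adjusted p 0.002). On T cells Snord53 was at 4.15, 6.64 and 2.26 TPM and was called lower (-0.96, SE 0.36, limma adjusted p 0.0208). That call needed the monocytes, since without them it was -0.27 (limma adjusted p 0.541).

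Lower on monocytes were Snord52, Snord23, Snord1a and Snord15b. Snord52 is listed at 0 in the 3 monocyte libraries (log2 fold change -2.77, SE 0.33, limma adjusted p 3.25e-07). Snord23, the member with the largest separated increase on T cells, was at 40.8, 40.7 and 37.6 TPM on monocytes (-2.17, SE 0.26). Snord15b, from Rps3, was at 57.2, 64.3 and 82.9 TPM on monocytes and at 1023, 938 and 660 on T cells (-1.64 on monocytes, SE 0.26). Snord1a (-2.03) lost its call without monocyte library 1, which was at 0 while the other two were at 12.1 and 12.4 TPM (then -0.79, limma adjusted p 0.085).

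Members hosted by 1 gene did not always move together. Within Hspa8, Snord14c and Snord14d were lower on monocytes (-1.48 and -1.36) while Snord14e was higher (1.5, limma adjusted p 8.72e-04), a call lost after rescaling (0.52, limma adjusted p 0.173). Within Rps3, Snord15b and Snord15a were both highest on T cells, at means of 873 and 129 TPM. Of the 4 members of the Gas5 group 3 were tested, 2 of which were called lower on B cells (43.5% of all genes) and 2 higher on monocytes (87.8%). After rescaling 1 was still higher on monocytes (86.3%), whereas Snord80 of the older entry was not called (1.42, limma adjusted p 0.116).

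Among the 48 members with each cell type mean above 5 TPM, the ratio of the highest to the lowest mean ran from 3.75 to 60.6 on the deposited values. There the widest were Snord71 (60.6, T cells over HSPC), Snord32a (43.4) and Snord73b (40.9), and the lowest ratios were those of Snord17 (3.75), Snord15a (4.80) and Snord3b3 with its same-valued copies (6.24). This order depended on the scale. After rescaling, the ratio was 16.9 for Snord71, 12.9 for Snord32a and 26.6 for Snord73b, but 33.2 for Snord23, which had 33.7 as deposited. It was then 5.13 for Snord17 and 7.19 for Snord3b3, above the 3.39 of Snord15a and the 3.19 of Snord118. Snord17, at 238 bases the longest member with a sequence, was at 100.0, 86.1 and 80.5 TPM on T cells, 51.5 to 117 on B cells and 49.3 to 139.5 on NK cells, which overlap. It was called higher on T cells as deposited (log2 fold change 1.02, SE 0.33, limma adjusted p 0.00848) but not after rescaling (0.44, limma adjusted p 0.206).

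Since most members are cut from introns, they were set beside their hosts, for which the tables give the summed transcripts of the gene. On the deposited values 47 members had a tested host, 33 hosts in all. On T cells 44 of these members were called higher (11% of all genes), and for 35 of the 44 the host was called lower. Of the 33 hosts 26 were called lower on T cells, a share near the 77.8% of all genes. The median log2 fold change on T cells was 2.71 for the members and -1.20 for the hosts, beside -1.32 for all genes, and 46 of the 47 members lay above their host. Eef2 had a mean of 17.5 TPM on T cells and 208 on monocytes, the reverse order of its Snord37 (3115 and 643). Likewise Rpl13a was at 63.2 TPM on T cells and 347 on monocytes.

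The exception was Snhg1, the only host of the 33 called higher on T cells. It had a mean of 176 TPM there and 12.1 to 51.9 elsewhere (log2 fold change 2.77, limma adjusted p 1.38e-07), beside 2.54 for its Snord22, which overlaps an exon of a Snhg1 transcript. On monocytes 32 of the 33 hosts were called higher, with a median of 2.09, where 87.8% of all genes were higher with a median of 3.02, against 24 of the 47 members with a median of 0.79. Across the 47 members the Spearman's rho with the host was -0.03 on T cells and -0.18 on monocytes. These points share the libraries, and members of 1 host share its value. The rescaled values covered 65 members and 45 hosts. There 54 members were called higher on T cells (4.69% of all genes), 52 of them with a host called lower. Of the 45 hosts 43 were called lower there, beside 86.8% of all genes.

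**Figure D4:**
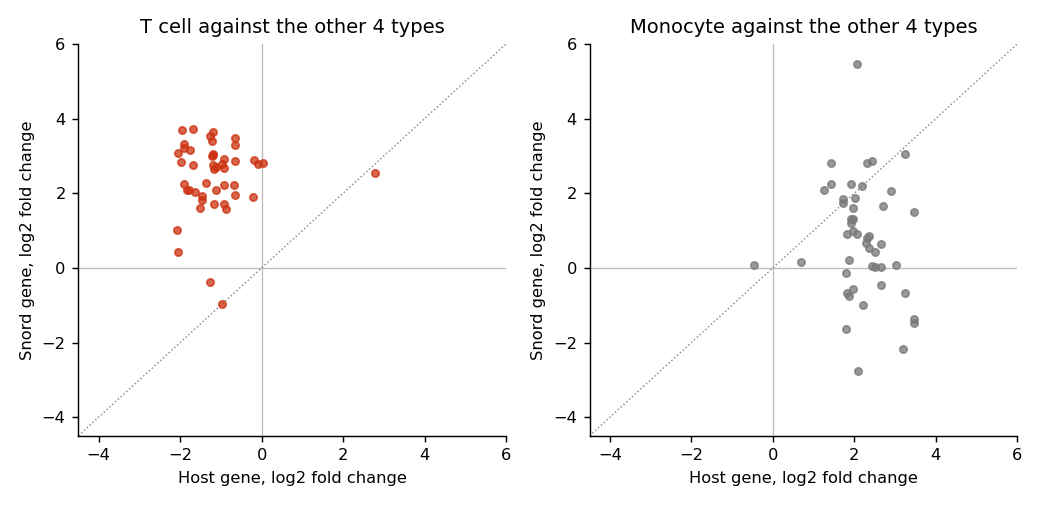
Log2 fold change of 47 Snord genes (vertical) against that of their host genes (horizontal) on T cells (left) and monocytes (right), each against the other 4 types, on the log2(TPM + 1) scale. The dotted line marks equal values. On T cells all but 1 point lie above the line, most with the host below 0, and on monocytes most points lie below it.

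The messenger RNAs of the snoRNA particle are given beside all genes. Of 12 listed genes of the core and its assembly, 4 were tested on the deposited values (Nop56, Nop58, Snu13 and Pih1d1). All 4 were called lower on T cells, with a median of -1.38, where 77.8% of all genes were lower with a median of -1.32. All 4 were higher on monocytes, with a median of 2.52, where 87.8% of all genes were higher with a median of 3.02. Nop58, which is also the host of Snord11, had a mean of 3.67 TPM on T cells and 21.2 on monocytes. On the rescaled values 7 were tested, and all 7 were lower on T cells (86.8% of all genes) and higher on HSPC (37.8%) and on monocytes (86.3%).

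Other genes annotated as snoRNA are given side by side, without a test of the difference. Of 41 Snora genes, which guide pseudouridylation, 28 were tested, with 5 called higher and 4 lower on T cells and a median of 0.14, beside the 11% and 77.8% of all genes. After rescaling, 2 of 36 were higher and 12 lower, with a median of -0.54, beside 4.69% and 86.8% of all genes. The Snora genes summed to 431 ± 80.4 TPM on T cells and to 724 ± 22.4 on monocytes (SD, n = 3 each). Of 348 genes annotated as snoRNA under other names 109 were tested, with 68 higher and 10 lower on T cells and a median of 1.30. Of 139 tested after rescaling, 51 were higher and 26 lower, with a median of 0.40. As deposited, these other genes summed to 20028 ± 5174 TPM on T cells, 8881.5 ± 969 on monocytes and 7258 ± 894 on NK cells. On B cells they summed to 2309 ± 612 TPM and on HSPC to 1798 ± 255 (SD, n = 3 each). T cells were thus highest and HSPC lowest, as for the members on the deposited values.

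In PBMC total RNA 96 rows carried a member's symbol, for 95 of the 104 symbols. The 9 libraries held between 4686432 and 9055803 expected counts, of which the members took 0.401% to 0.570%. Of the 96 rows 75 were above 0 in each library and 17 were at 0 in all 9, where 3 counts correspond to 0.331 to 0.640 counts in 1000000 (CPM). The highest mean counts were those of Snord17 (9176), Snord15b (3681), Snord22 (2752), Snord32a (1282), Snord118 (1250) and Snord33 (1081). Snord17 is the longest member with a sequence, and these counts are not set per length. Per base, the mean count in PBMC and the mean surface TPM over the 5 types had a Spearman's rho of 0.72 over 94 members, which are not independent. Copies of Snord116l, at 0 in PBMC and near 0 on the surface, are among them, and rho without these is not given here.

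The 3 PBMC groups were compared with edgeR on TMM-normalised counts. Few members differed. Between WT and ct 2 of 76 tested members were called (2.36% of 11635 genes), between Y and ct 1 (0.696%), and between Y and WT 2 (1.25%). These comparisons share samples. Snord100, hosted by Rps12, was at 37.4, 50.5 and 57.0 CPM in the WT libraries. The ct libraries had 31.8, 28.6 and 37.0 CPM of it, and the Y libraries 31.2, 32.1 and 32.1. It was higher in WT than in ct (log2 fold change 0.56, edgeR adjusted p 0.0278) and lower in Y than in WT (-0.59, edgeR adjusted p 0.0368). With 1 library left out at a time, the former lay between 0.44 and 0.73. All WT libraries were above all others. Snord90 was at 64.8, 55.3 and 60.8 CPM in Y, against 30.7 to 46.0 in ct and 33.4 to 47.5 in WT. It was higher in Y than in ct (0.68, edgeR adjusted p 0.0332) and than in WT (0.63, edgeR adjusted p 0.0393), and against ct the value lay between 0.56 and 0.87 with 1 library left out at a time.

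Snord1a, the scarcest of the 3, had 14 to 21 counts per library in ct and 32 to 45 in WT (log2 fold change 1.05, edgeR adjusted p 0.0369). No call of these 3 members survived leaving out each library of the groups compared in turn. Snord100 in WT against ct kept its call without ct library 3 or WT library 1 and lost it without the other 4, with adjusted p between 0.104 and 0.136. The adjusted p of Snord90 in Y against ct reached 0.201 without ct library 2. Without most of them passing the test, 73 of 76 members had a log2 fold change above 0 in WT against ct, with a median of 0.29 beside 0.00 for all genes. In Y against ct 64 did, with a median of 0.17. In Y against WT 22 did, with a median of -0.12. The members share these libraries and are not replicates, and the share of all genes above 0 is not given here. The member share of ct library 3, 0.543%, lay above those of the other 2 ct libraries, 0.401% and 0.409%, and of the WT libraries, 0.507%, 0.477% and 0.464%. The TMM factor of WT library 3 was 0.783, which raises its CPM, while the other factors ran from 0.972 to 1.10. Without ct library 3, 8 members were called in WT against ct and 8 in Y against ct. The share of all genes called in that fit is not given here.

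**Figure D5:**
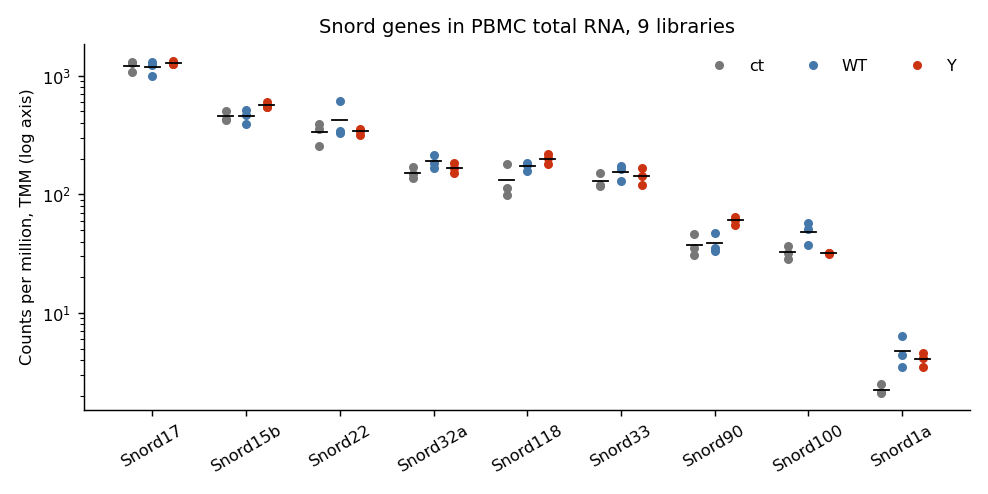
TMM-normalised CPM, on a log axis, of 9 Snord genes in PBMC total RNA, with points for the 3 libraries of ct, WT and Y and bars for their means. Snord90 is highest in Y and Snord100 highest in WT, all 3 libraries of that group lying above the other 6.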

How the data were processed

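AMOUR libraries of 5 cell types and total RNA libraries of PBMC were analysed, with 3 libraries per group. For the surface tables the authors trimmed reads with Trimmomatic, removed duplicates with the same barcode and deposited TPM per transcript from Kallisto. The submitters' processing notes name mm10, whereas the methods name a human transcriptome, so that the murine transcript set is not given in the sources used here. The PBMC values deposited by the authors are RSEM's expected counts of each gene, which were rounded to whole numbers. TPM of all transcripts of a gene listed in all 5 tables were summed. Rescaled values leave out 157 genes, those of gene type rRNA and 3 Gm genes, and set each library to 1000000. Surface values were fitted with limma 3.58.1 (R 4.3.3) on log2(TPM + 1) with a mean-variance trend, in 1 fit of 15 libraries, for genes whose mean of the 5 type means was above 5 TPM. PBMC counts were tested with edgeR 4.0.16 (quasi-likelihood, TMM, filterByExpr) in 1 fit of 9 libraries, with DESeq2 1.42.0 as an alternative. Calls need a Benjamini-Hochberg adjusted p below 0.05 over all genes tested. Both fits were tested on simulated data. Intervals cannot be given for TPM, and the limit of 3 counts in PBMC covers counting error only. RSEM gave the Snord rows effective lengths of 1.83 to 134.95 bases, and its length-corrected values were not used. Within each PBMC group no pair of libraries agreed within counting error, as chi-square per degree of freedom was at least 5.54.

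Named in the text are the 12 highest members, up to 4 members per contrast and direction with the largest fold change among called members with separated libraries and among those called on both scales, the 3 widest and 3 most even members, in PBMC the called and the 6 most abundant members, and examples of the host and processing groups. Members, lists and this rule were chosen with earlier results of these data known. Alternatives were another pseudocount, filter or threshold, the rescaled values, fits without monocytes, each library left out, a replicate block, and other PBMC normalisation and tests. Some sequences and a host gene are not reported here.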

Additional observations from a re-analysis of the deposited data

Results flagged for a closer look

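Snord43, a box C/D snoRNA by name, is annotated as miRNA in the surface tables and was therefore no member. It had a mean count of 616 in PBMC total RNA, with 389 to 847 counts in each of the 9 libraries, above the limit that a count of 0 allows. On the surface it was at 128, 121 and 62.0 TPM on T cells, 47.4 to 57.3 on NK cells and at most 29.7 on the other types.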

How the results depend on the processing

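Of the single-member values 1337 kept direction and side of the threshold under the alternatives, 44 lost a call, 7 gained one and 14 changed sign. On the surface the count of members higher on T cells was 68 to 73 with each library left out, and those higher on B cells 5 to 8. After rescaling, NK cells had 4 lower members, HSPC 3 higher and 25 lower, and monocytes 19 higher and 31 lower. Without monocytes, T cells had 0 lower, NK cells 26 higher and 0 lower, and HSPC 1 higher. Rescaled and without monocytes, which was chosen after the data were seen, B cells had 2 higher, T cells 0 lower, NK cells 7 higher, HSPC 8 higher and 40 lower, and the log2 fold change of Snord17 on T cells turned to -0.067. A pseudocount of 10 gave T cells 2 lower members. With each library left out, lower members on T cells numbered 0 to 2 (0 without T cell library 1 or 3), and higher members on NK cells 10 to 18 (10 without NK cell library 1). No value for monocytes exists without monocytes. Except for the rescaled values of all 5 types, the share of all genes called under these alternatives is not given here. These counts therefore do not set the members apart from other genes.

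At 10 TPM, 43 members passed on B cells, 66 on NK cells, 42 on HSPC and 76 on monocytes. After rescaling, 40, 61, 51 and 64 passed 50 TPM in the same order. As the share of all genes that passed is not given here for either setting, the counts do not set the members apart. Rescaled sums were 46227 TPM on B cells, 107578 on T cells, 61713 on NK cells, 32513 on HSPC and 23799 on monocytes. With same-valued genes counted once, the sums were 8831 TPM on B cells and 2856 on HSPC.

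In PBMC, no count filter gave 20 called members in WT against ct, 9 in Y against ct and 9 in Y against WT, and DESeq2 gave 1, 2 and 2. With each library left out the counts ran from 0 to 12 in WT against ct, 0 to 8 in Y against ct and 0 to 3 in Y against WT. Calls fell to 0 in WT against ct without ct library 1 or 2 or WT library 2 or 3, and rose to 8 without ct library 3 and 12 without WT library 1. In Y against ct they fell to 0 without ct library 1 or 2 or any Y library, and in Y against WT without WT library 2 or 3 or any Y library. As the share of all genes called in these fits is not given here, the counts do not set the members apart from other genes. Uncalled log2 fold changes that changed sign with a library left out ranged in WT against ct from -0.14 to 0.068 for Snord17, -0.066 to 0.13 for Snord15b and -0.12 to 0.24 for Snord90. In Y against ct they ranged from -0.016 to 0.12 for Snord17, -0.14 to 0.16 for Snord22 and -0.11 to 0.084 for Snord100, and in Y against WT from -0.49 to 0.016 for Snord22 and -0.41 to 0.026 for Snord1a.

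Same-numbered T and NK cell libraries deviated together, with correlations of 0.56, 0.29 and 0.48, whereas the other 27 same-numbered pairs on the surface ran from -0.32 to 0.082, and those in PBMC ran from -0.061 to 0.060. With the number as a replicate block 5 members were called in WT against ct, 2 in Y against ct and 3 in Y against WT, and on the surface 73 were higher on T cells, 17 higher and 3 lower on NK cells, with no call of a named member changed. The causes of these shifts were not tested, and the share of all genes called with the block is not given here. Without known depth, small surface differences of scarce members cannot be judged.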
